A study of Rattus with 6 samples.

Results

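Actb, B2m, Gusb, Hsp90ab1, Sdha, Rpl13a and Rplp1, transcripts often used as internal references in expression work, were examined as candidate normalisers in rat blood plasma. They were chosen by gene name, as the custom linear-transcript probes of 1 probe series whose RefSeq transcript belongs to one of these genes. This gave 7 probes, 1 per gene, out of 62 linear-transcript probes and 14227 non-control probes on the array, the others being mostly circRNA probes. Each has 10 spots per array. The probe IDs carry the transcripts NM_031144.2 for Actb, NM_012512.1 for B2m, NM_017015.2 for Gusb, NM_001004082.3 for Hsp90ab1, NM_130428.1 for Sdha, NM_173340.2 for Rpl13a and NM_001007604.1 for Rplp1.

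The samples were plasma of male SD rats in a study of myocardial ischaemia-reperfusion injury (MIRI), modelled by tying off a coronary artery and releasing it. The labels give 3 arrays as 0 h and 3 as 2 h and use MIRI for both; they describe 6 rats, a ligation of 40 min, reperfusion for 2 h, and sham-operated controls with a thread placed but not tied, and they do not state whether the 0 h samples are these controls. Age is not given. Before labelling with Cy3, RNA of both groups was treated with the exonuclease RNase R to remove linear RNA, so the 7 transcripts were read after a step directed against linear RNA. Whether the signal comes from residual linear RNA was not tested.

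A reference transcript is a transcript whose level is taken as constant, so that other transcripts can be expressed as a ratio to it. Actb encodes a cytoskeletal actin, Sdha a subunit of mitochondrial complex II, Hsp90ab1 a cytosolic chaperone, Gusb a lysosomal glycosidase, B2m the invariant subunit of MHC class I, and Rpl13a and Rplp1 ribosomal proteins. Plasma holds little cellular RNA, and its messenger RNA fragments come from blood cells, vessel wall and organs in proportions that can shift, which is why references valid in a tissue are not taken over to plasma unchecked.

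The 75th percentile of the signal over all non-control probes was 56.3 to 74.8 scanner units per array, and 76.3% to 88.4% of these probes were well above background, a flag set by the scanner software. The array labelled 2 h replicate 2 was the highest in both and 2 h replicate 1 the lowest in both. All 6 arrays carry the same scan time; the array identifier in the file headers begins with 1 on every 0 h array and with 2 on every 2 h array, so whatever that number stands for and the group cannot be told apart. Of the marker lists for red cells, platelets, leukocytes, endothelium, cardiomyocytes, hepatocytes and neurons, only Cyp2e1 of the hepatocyte list and Map2 of the neuron list had a probe with a known symbol, so the cells behind the plasma RNA could not be checked.

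Hsp90ab1 and Sdha were well above background on every array and varied little between arrays. Hsp90ab1 read 1429, 1633 and 1619 units at 0 h and 1312, 1658 and 1523 at 2 h. After background subtraction this was between 72.9 and 96.3 times the local background. Sdha read 88.5, 103 and 93.3 at 0 h and 81.5, 106 and 95.2 at 2 h, after subtraction 4.50 to 6.13 times the local background. For both, the 0 h values lay inside the range of the 2 h values, and 2 h replicate 1 was the lowest array and 2 h replicate 2 the highest.

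Actb was well above background on all arrays, but its signal after subtraction was only 1.09 to 1.98 times the local background. Its signal was 29.98, 26.2 and 25.7 at 0 h and 21.3, 37.6 and 28.5 at 2 h. The 2 h arrays thus enclosed all 0 h arrays.

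The other probes read at most 1.00 times the local background after subtraction. B2m gave 17.6, 11.4 and 11.6 units after subtraction at 0 h and 9.13, 13.8 and 10.01 at 2 h; the first 0 h array stood above the rest. Gusb gave 11.3, 8.39 and 9.83 at 0 h and 10.3, 15.2 and 11.9 at 2 h. Rpl13a gave 8.75, 6.81 and 6.96 at 0 h and 5.88, 11.3 and 7.62 at 2 h, with 8 of its 10 spots well above background on 2 h replicate 1. Gusb and Rpl13a were each highest on 2 h replicate 2, as Actb was. All 3 of these probes were nevertheless called well above background on all 6 arrays.

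Rplp1 was the only member not detected throughout. Its signal was 5.89, 4.66 and 3.65 at 0 h and 4.92, 18.3 and 9.58 at 2 h, and the detection flag held on 1 of the 0 h arrays and 2 of the 2 h arrays. On 0 h replicates 2 and 3 only 4 and 2 of 10 spots carried the flag, and on 2 h replicate 1 5 of 10. Within an array its spots ran from 16.4 to 19.6 on 2 h replicate 2 and from 2.68 to 4.91 on 0 h replicate 3, with no spot shared between these ranges. So 6 of 7 members were detected on all arrays, and all 7 entered the tests, Rplp1 with the minimum of 3 arrays.

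**Figure D1:**
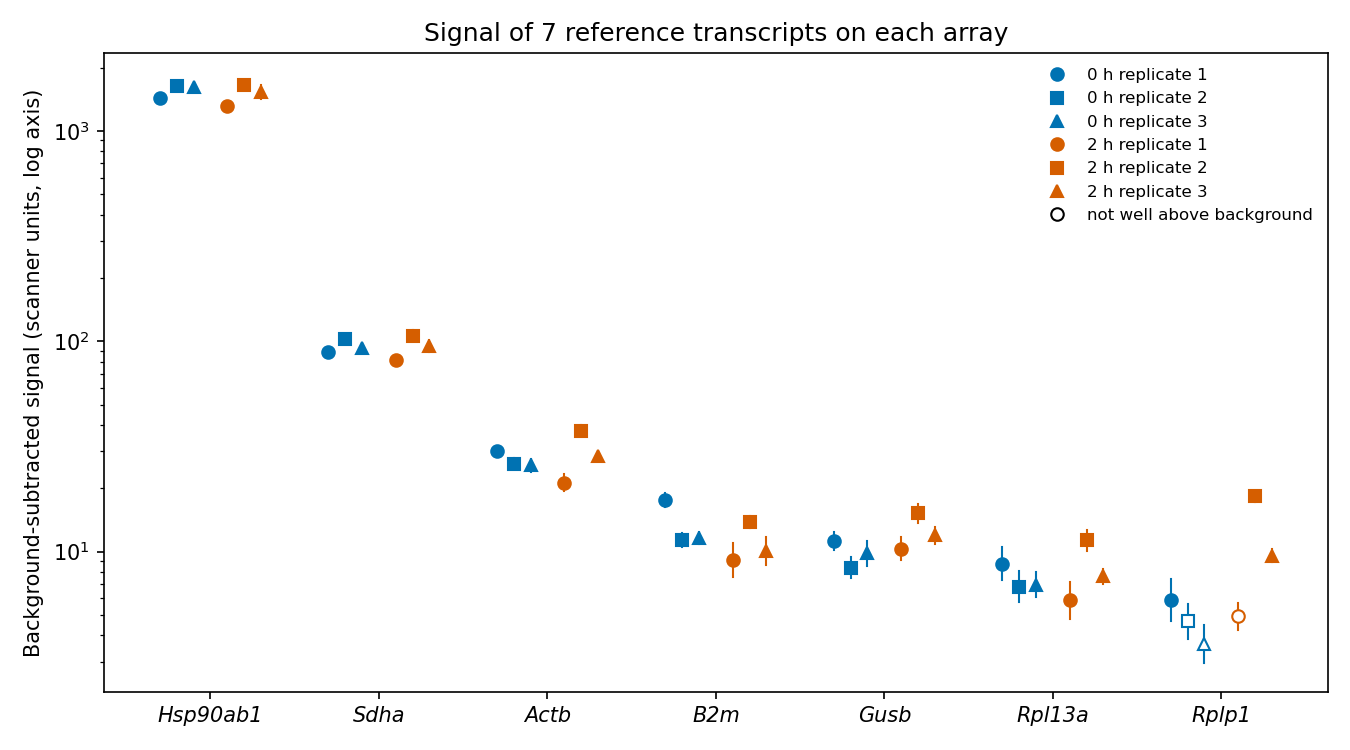
Background-subtracted signal in scanner units (log axis) of each reference transcript on each array; points are means of log2 signal over spots, bars 1 SD between spots, blue 0 h and orange 2 h, and open symbols mark arrays not well above background. Rplp1 spans from 3.65 to 18.3 units while Sdha stays between 81.5 and 106; heights of different probes are not comparable, since each probe binds with its own efficiency.

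The comparison of 2 h with 0 h asked whether any of these transcripts moved between the labelled times. In plasma, fewer cells releasing a transcript and less of it per cell cannot be told apart. After each array was scaled to its 75th percentile, 0 of 7 members passed limma's test at an adjusted p under 0.05 (Benjamini-Hochberg over 11706 tested probes), against 0% of all tested probes, where the smallest adjusted p was 0.183. At an unadjusted p under 0.05 in limma there were 2 of 7, Gusb and Rplp1, both higher at 2 h, where 12.8% of all tested probes passed and 9.02% did so as higher. None was lower at that level, where 3.81% of all tested probes were. The median log2 difference was 0.031 over the members and -0.0045 over all tested probes. Of the members 4 were higher and 3 lower, and of all tested probes 5753 higher and 5953 lower.

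Hsp90ab1 differed by -0.090 on the log2 scale (SE 0.11, n = 3 per group; 95% interval -0.36 to 0.18; adjusted p 0.761, limma). Sdha differed by -0.040 (SE 0.12; interval -0.32 to 0.24), Actb by 0.031 (SE 0.14; interval -0.29 to 0.35) and Rpl13a by 0.069 (SE 0.17; interval -0.33 to 0.47). For these 4 members the interval lay within a 1.5-fold change either way, as it did for 64.7% of all tested probes. The signs of these small differences were not settled: Actb turned to -0.011 and Rpl13a to -0.076 under quantile normalization, and Hsp90ab1 to 0.042. Normexp was run on median spot intensity, not on the processed signal. It subtracts the local background and then models what background remains, so its shifts include this change of intensity measure. With normexp and no offset added, Rpl13a differed by 0.56 (interval -0.57 to 1.70) and Actb by 0.15 (interval -0.31 to 0.61). Their intervals then reached past 1.5-fold.

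Gusb was the one member whose groups did not overlap after scaling, where 19.4% of all tested probes showed no overlap (11.5% as higher at 2 h and 7.85% as lower). Its scaled log2 signal was -2.54, -2.83 and -2.75 at 0 h and -2.45, -2.30 and -2.45 at 2 h. This is a 1.24-fold higher level (log2 difference 0.31, SE 0.12, n = 3 per group; 95% interval 0.033 to 0.59; unadjusted p 0.0333, adjusted p 0.348, limma). The unadjusted p of Gusb was under 0.05 in 9 of 22 refits with another setting or without an array (limma). Without scaling the groups overlapped, since 0 h replicate 1 at 11.3 units lay above 2 h replicate 1 at 10.3.

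Rplp1 read 2.01-fold higher at 2 h, with a wide interval of 1.09-fold to 3.70-fold (log2 difference 1.01, SE 0.37; unadjusted p 0.0303, adjusted p 0.336, limma). Its scaled values were -3.47, -3.68 and -4.18 at 0 h and -3.52, -2.03 and -2.77 at 2 h, so the groups overlapped, with 2 h replicate 1 inside the 0 h range. The readings of 0 h replicates 2 and 3 and of 2 h replicate 1 were not well above background, so the fold and its interval rest in part on undetected readings. Without 0 h replicate 1, 2 h replicate 2 or 2 h replicate 3 the probe was no longer among those tested. In the 18 refits that could test it, its unadjusted p was under 0.05 in 14 (limma). Refits without 2 h replicate 2 or 3, its brightest arrays, could not enter this count. The count therefore does not show whether the difference holds without them. Rpl13a, the other ribosomal protein transcript, read 1.05-fold higher. Normexp with an offset of 50 units gave a log2 difference of 0.21 for Rplp1, normexp without the offset 0.99, and the offset alone on the subtracted signal 0.13.

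B2m went the other way, at a log2 difference of -0.32 (SE 0.18; 95% interval -0.74 to 0.10; adjusted p 0.489, limma). The scaled values were -1.89, -2.39 and -2.51 at 0 h and -2.62, -2.44 and -2.70 at 2 h, and overlapped only because 2 h replicate 2 lay above 0 h replicate 3. Without 0 h replicate 1 the difference was -0.13. It was -0.49 with array weights, -0.42 with quantile normalization and -0.38 with median scaling, 0.059 with normexp and its offset, 0.23 with normexp without the offset and -0.074 with the offset alone. Over all 22 refits its adjusted p lay between 0.103 and 0.938 (limma).

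**Figure D2:**
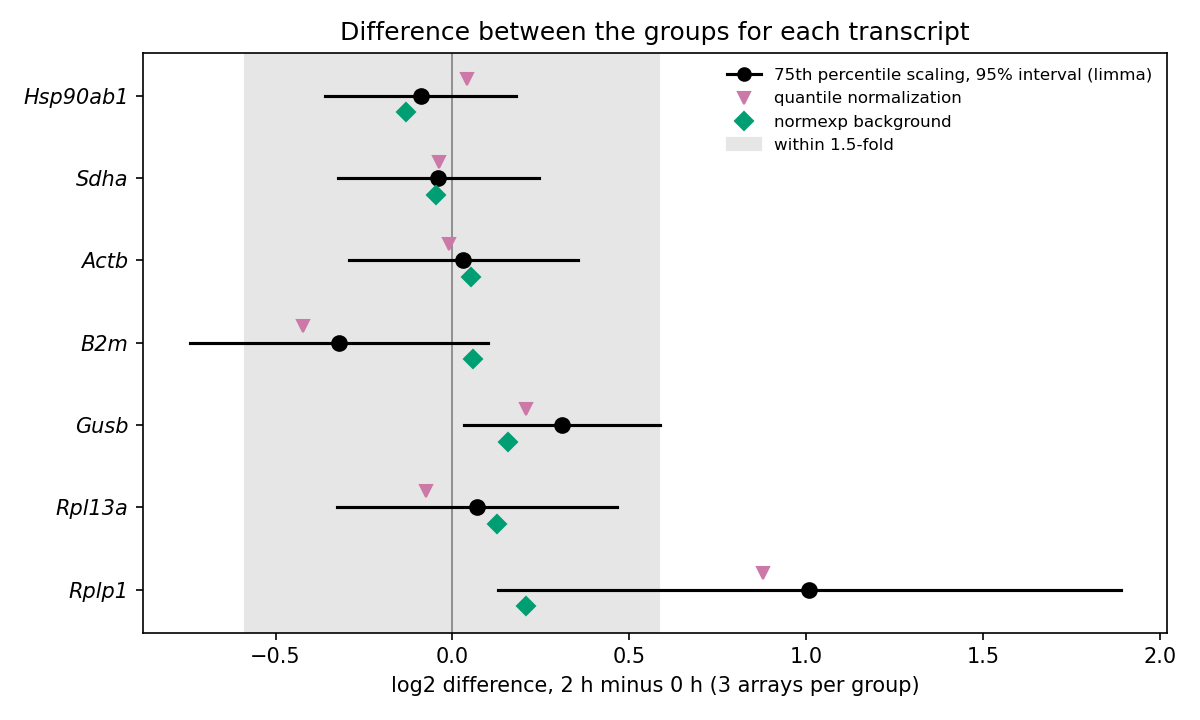
Log2 difference of 2 h minus 0 h for each reference transcript, with limma's 95% interval after 75th percentile scaling (black, 3 arrays per group), and the estimates with quantile normalization (purple) and normexp background correction (green); the grey band marks 1.5-fold either way. Hsp90ab1, Sdha, Actb and Rpl13a lie inside the band with their intervals, and B2m changes side with normexp, from -0.32 to 0.059.

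Spread between arrays sets how well a transcript serves as a reference. Within groups the SD of the scaled log2 signal was 0.12 for Hsp90ab1, 0.12 for Gusb, 0.13 for Sdha, 0.17 for Actb, 0.23 for Rpl13a, 0.25 for B2m and 0.58 for Rplp1, against a median of 0.17 over all tested probes. These values pool both groups, which were unequal. The SD was 0.16 at 0 h and 0.044 at 2 h for Hsp90ab1, and 0.19 and 0.022 for Sdha. B2m and Gusb also had the larger SD at 0 h, while Actb, Rpl13a and Rplp1 had it at 2 h. Over all 6 arrays the SD was 0.12 for Hsp90ab1 and for Sdha, and 0.15 for Actb. Probes with a smaller SD were still common: 12 of the other 39 tested linear-transcript probes for Hsp90ab1, 13 for Sdha and 17 for Actb, and 20.1%, 21.9% and 36.4% of circRNA probes in the same order. Rplp1 stood at the far end, with 37 of 39 linear-transcript probes and 98.2% of circRNA probes less variable.

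The standard error of a mean over spots was 0.015 for Hsp90ab1, 0.023 for Sdha, 0.028 for Actb, 0.035 for B2m, 0.054 for Gusb, 0.069 for Rpl13a and 0.077 for Rplp1 (median over arrays, log2). The SD between arrays of a group exceeded it 2.31 times for Gusb, 3.32 times for Rpl13a, and 5.64 to 7.73 times for the other members.

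A ratio of 2 transcripts on the same array needs no scaling, and its change over arrays compares 2 candidate references directly. Among the 21 pairs, the SD of the log2 ratio over the 6 arrays ran from 0.053 to 0.85 with a median of 0.29. The steadiest was Hsp90ab1 to Sdha, whose log2 ratio stayed within -0.053 and 0.10 of its mean on all arrays; its SD of 0.0535 compares with 0.0307 from spot error alone. Next came Actb to Rpl13a, with an SD of 0.0799 against 0.0765 from spot error, deviating by -0.073, 0.093 and 0.037 at 0 h and by 0.0073, -0.12 and 0.052 at 2 h. Normexp without an offset gave an SD of 0.089 for Hsp90ab1 to Sdha and of 0.46 for Actb to Rpl13a, so the steadiness of the second pair was not kept under that setting. Between these 2 pairs the ratios were looser: Actb to Hsp90ab1 had an SD of 0.22 and Rpl13a to Hsp90ab1 of 0.29.

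**Figure D3:**
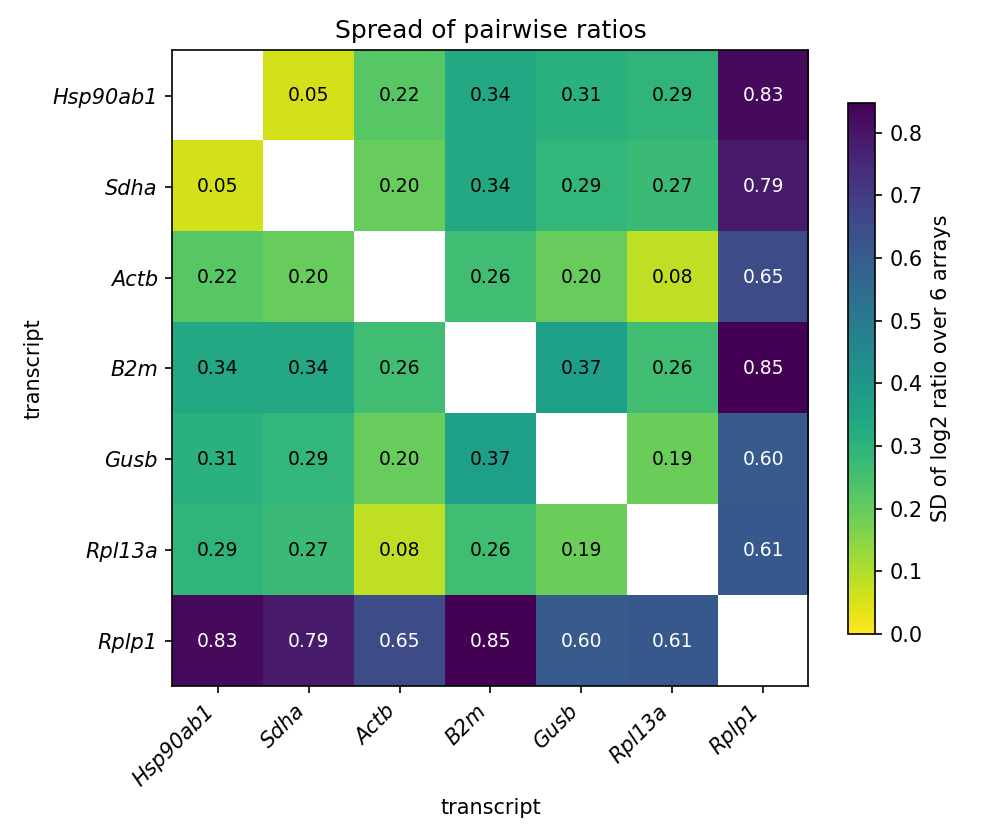
SD over 6 arrays of the log2 ratio for each pair of reference transcripts, dark for large values. Hsp90ab1 with Sdha (0.053) and Actb with Rpl13a (0.080) are the steadiest pairs, and every pair with Rplp1 is at 0.60 or more.

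The ratio of Actb to Hsp90ab1 moved with an array-wide measure. It deviated from its mean by 0.20, -0.19 and -0.20 at 0 h and by -0.17, 0.31 and 0.036 at 2 h, while the share of probes well above background was 82.5%, 79.1% and 77.6% at 0 h and 76.3%, 88.4% and 83.3% at 2 h. The 3 arrays with the higher shares were those with the positive deviations. Rplp1 to Actb was also highest on 2 h replicate 2, by 1.02 above its mean. The part of the detected share in these ratios was not tested.

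The groups did not overlap for 7 of 21 pairs, where 38.5% of the 780 pairs of tested linear-transcript probes showed no overlap: B2m against Actb, Gusb, Rpl13a and Rplp1, Rplp1 against Actb and Rpl13a, and Gusb against Actb. Of these 7 pairs 3 use Rplp1, which was not well above background on 3 arrays. In a two-sided exact permutation test each of these reached p = 0.1, the lowest value 3 arrays against 3 allow, and 0.3 after Benjamini-Hochberg adjustment over 21 pairs. Among the 15 pairs without Rplp1, B2m to Gusb changed most, with deviations of 0.52, 0.31 and 0.11 at 0 h and -0.30, -0.27 and -0.38 at 2 h, a change of -0.63 (SE 0.12). Among the 6 pairs of Actb, Sdha, Hsp90ab1 and Rpl13a the groups overlapped in all, and the ratios differed between groups by 1.03-fold to 1.12-fold. A ratio's mean change is the difference between its members' own changes, and these genes had the smallest changes of the members. The small folds therefore add no evidence beyond the members' own differences.

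**Figure D4:**
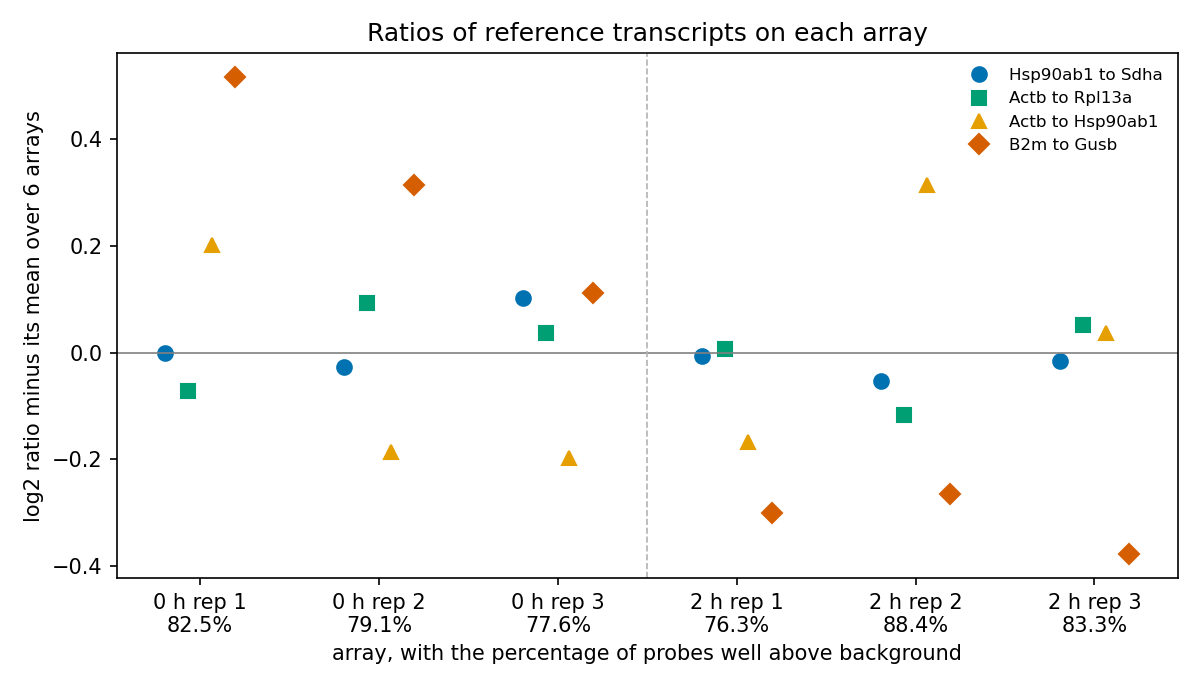
Deviation of 4 log2 ratios from their mean over the 6 arrays, by array, with the percentage of probes well above background under each array. Hsp90ab1 to Sdha stays near 0, Actb to Hsp90ab1 is positive on the 3 arrays with 82.5% or more detected, and B2m to Gusb is above 0 on all 0 h arrays and below 0 on all 2 h arrays.

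M, the mean over the other members of the SD of the log2 ratio, sums this up for each gene, a lower M being steadier. It was 0.27 for Actb, 0.28 for Rpl13a, 0.32 for Sdha, 0.33 for Gusb, 0.34 for Hsp90ab1, 0.40 for B2m and 0.72 for Rplp1. With the member of highest M removed in turn, Rplp1, B2m, Gusb, Rpl13a and Actb left in that order, and Hsp90ab1 and Sdha remained. Normexp with its offset, which draws the log ratios of dim probes together, gave 0.13 for Rplp1, 0.095 for Actb and 0.19 for Hsp90ab1, the highest. Without the offset M was 0.58 for Rplp1, 0.40 for Actb and 0.60 for Hsp90ab1, again the highest, and with the offset alone Hsp90ab1 was highest at 0.12. With the subtracted signal alone, Hsp90ab1 was steadier than B2m and Rplp1 by M; in these 3 settings it was the least steady.

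Each member was also set against the other linear-transcript probes with a symbol, 26 each, by the SD of the log2 ratio over the 6 arrays. The nearest to Gusb was Hprt1, a purine salvage enzyme and itself a common reference, with an SD of 0.12; Hprt1 had a log2 difference of 0.34. For B2m the nearest was Ndfip1, an adaptor of ubiquitin ligases, at 0.13, and for Rplp1 it was a probe of Ldha, the A subunit of lactate dehydrogenase, at 0.19. Hsp90ab1 and Sdha were nearest to each other, as were Actb and Rpl13a. Of a list of 30 other reference genes, 3 had a probe: Hprt1, Pgk1 and Ldha, the last with 2 probes. None of these 4 probes passed the adjusted test in either direction (0 higher, 0 lower, limma), and 3 of the 4 were higher at an unadjusted p under 0.05, against 9.02% of all tested probes; 2 of these 3 are the probes of Ldha. Pgk1, a glycolytic enzyme, had a log2 difference of -0.0014 (SE 0.11) and an SD over 6 arrays of 0.090, below that of any of the 7 members.

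All other probes were then read against the candidate references. Scaled to the mean of the 6 members detected on all arrays, all tested probes had a median log2 difference of 0.0026. This was close to the -0.0045 of the 75th percentile. In that mean B2m at -0.32 and Gusb at 0.31 offset each other, and Rplp1 at 1.01 was left out as not detected throughout. This mean itself differed by -0.0070 between groups (SE 0.083; exact permutation p 1, two-sided), and its SD over the 6 arrays was 0.091. Scaling to a single transcript gave -0.035 with Actb, 0.036 with Sdha, 0.086 with Hsp90ab1 and -0.074 with Rpl13a. With B2m it gave 0.32, and 94.1% of probes then read higher at 2 h. With Gusb it gave -0.31, and 14.1% read higher. Scaling subtracts 1 value per array, so each shift from the 75th percentile median is the reference's own difference with the sign turned. These medians therefore add no evidence beyond the members' own differences.

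**Figure D5:**
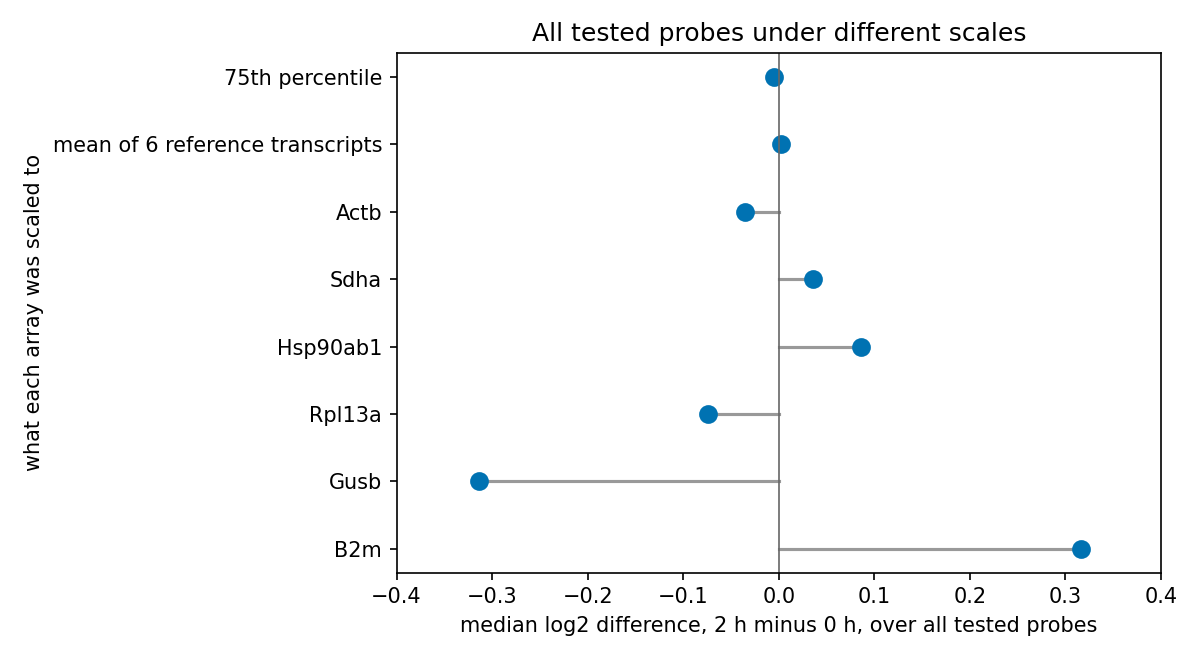
Median log2 difference of 2 h minus 0 h over all tested probes when each array was scaled to the 75th percentile, to the mean of 6 reference transcripts or to a single one. The single scales Actb, Sdha, Hsp90ab1 and Rpl13a stay between -0.074 and 0.086, while Gusb gives -0.31 and B2m 0.32. Each shift from the 75th percentile value is the reference's own difference with the sign turned.

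Spread followed the same choice. The median SD within groups over all tested probes was 0.17 with the 75th percentile, 0.19 with the mean of 6 members, 0.21 with Gusb or Hsp90ab1, 0.22 with Sdha, 0.23 with Actb, 0.28 with Rpl13a and 0.29 with B2m, against 0.23 without any scaling. Scaling to Actb, Rpl13a or B2m alone thus left probes about as variable as no scaling or more so. The number of probes past the adjusted test in limma was 0 with the 75th percentile, Gusb, Hsp90ab1 or Sdha, 72 with the mean of 6 members, 223 with Actb, 263 with Rpl13a and 889 with B2m. The deviation of a scale enters every probe alike, so these counts are given as a description of the scale only. With the mean of 6 members the count was 0 without 0 h replicate 3 or without 2 h replicate 2, 15 without 0 h replicate 1, 9 without 2 h replicate 3, and 213 without 2 h replicate 1.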

How the data were processed

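Spot intensity came from Agilent Feature Extraction 11.0.1.1, per the file headers, which gives a background-subtracted processed signal that the authors deposited without scaling between arrays; the flags for outliers, saturation and signals well above background, and median spot and background intensity, are from the same files. The submitters' processing notes name limma, with steps not given in the sources used here. The deposited log2 value table holds circRNA probes only and was not used here.

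Control spots and outlier spots (22 of the 420 member spots) were left out, log2 signal was averaged over spots, and the 75th percentile of non-control probes was subtracted per array. A probe counted as detected where a share of over 0.5 of its spots were well above background, and was tested if detected on at least 3 arrays. All 11706 such probes were fitted together (limma 3.58.1, R 4.3.3, two-sided). The fit was also run on simulated data with noise drawn independently for each probe and array. Such data hold no array-wide deviations, so that run does not vouch for the calls given here. No spot was saturated (0 spots). Symbols came from a RefSeq table of assembly GRCr8, which named 39 of 62 linear-transcript probes. The members, lists and tests were chosen with earlier results of these data known. Named genes are the members and, for each, the linear-transcript probe of smallest ratio SD, and the measured genes of the lists of other references and cell type markers. The labels do not say that replicates are separate animals beyond the 6 rats, so p-values measure the spread between these samples. The replicate number was not used as a pairing. The number of arrays limits the precision.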

Additional observations from a re-analysis of the deposited data

How the results depend on the processing

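The count of members past the adjusted test was 0 in the 16 alternatives in processing and on leaving out any array, with limma throughout. Of the 16, normexp without its offset and the offset alone were chosen after seeing the data. Over all tested probes the calls were 355 with array weights, 72 with scaling to the members, 37 with trended robust eBayes, 12 with normexp, 1 with the offset alone and 0 in the other settings and without any array. Of 150 refits of a member's difference, 137 kept direction and 13 reversed. Quantile normalization turned Actb to -0.011, Hsp90ab1 to 0.042 and Rpl13a to -0.076, median scaling turned Actb to -0.031, array weights turned Sdha to 0.0053 and Rpl13a to -0.026, and B2m turned to 0.059 with normexp and to 0.23 without its offset. Without an array Actb ranged from -0.070 to 0.13, Sdha from -0.11 to 0.066 and Rpl13a from -0.081 to 0.19; Sdha turned without 0 h replicate 2, and Actb and Rpl13a without 0 h replicate 3 or 2 h replicate 2. Gusb and Rplp1 stayed higher in all refits run on them, at 1.03-fold to 1.55-fold and 1.09-fold to 2.60-fold, and Rplp1 missed the filter without 0 h replicate 1, 2 h replicate 2 or 2 h replicate 3 and with the filter for all arrays. The cause was not tested.

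The count of members without overlap, 1, became 3 with quantile normalization, 3 with median scaling and 3 with scaling to the members (B2m, Gusb and Rplp1 each time), 2 with normexp, with or without its offset, and 0 without scaling, and lay between 1 and 2 without an array. Over all tested probes the share without overlap, 19.4%, was 20.4%, 19.0%, 16.8%, 19.5%, 17.8% and 9.49% in the same order, and 25% to 38.8% without an array. Pairs without overlap, 7, were 6 with outlier spots kept, 6 with the median over spots, 7 with normexp, 9 without its offset, 8 with the offset alone, and 7 to 13 without an array, 13 without 0 h replicate 1. With scaling to single members the median difference over all tested probes moved to 0.32 (B2m) and -0.31 (Gusb). With scaling to the mean of 6 members it was -0.025 to 0.063 without an array. Probes called, 72 with that mean, became 223 (Actb), 889 (B2m), 263 (Rpl13a) and 0 with Gusb, Hsp90ab1 or Sdha. With that mean they were 0 to 213 without an array. By the looser flag for positive and significant signals 7 members, not 6, were detected on all arrays.

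With the replicate number as a block, 0 members were called, and the adjusted p was 0.464 for Gusb and 0.391 for Rplp1 (limma). Same-number arrays had deviations correlated at -0.11, 0.015 and -0.062, and were best partners for 0 of 6. With 3 arrays per group this cannot decide on pairing. Low signal over background limits all members but Hsp90ab1 and Sdha.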
